A study of Homo sapiens with 6 samples.

Results

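Activating transcription factor 4 (ATF4) and the genes known to respond to it were followed in human ovarian carcinoma cells that express introduced BARD1 and in control cells. The 37 members were chosen by gene symbol: ATF4 and 6 other stress transcription factors, 6 further stress-induced genes, 7 enzymes of amino acid and one-carbon synthesis, 7 amino acid transporter genes and 10 cytosolic aminoacyl-tRNA synthetases. All 37 were found among the 58735 genes of the deposited count table, and 36 passed the filter on low counts that left 15400 genes for testing. The synthetases carry their older symbols there (AARS, CARS and so on, now AARS1, CARS1).

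ATF4 is the main effector of the integrated stress response. Lack of amino acids, unfolded protein, heme shortage or viral RNA activates kinases that phosphorylate the initiation factor eIF2, which lowers bulk protein synthesis while the ATF4 mRNA is translated more. ATF4 is therefore controlled largely at translation, and its own mRNA need not follow its activity. With C/EBP partners it binds C/EBP-ATF response elements and raises genes that make, import and charge amino acids. In tumour cells these genes are known for supplying serine, one-carbon units, cystine and essential amino acids.

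Libraries of BARD1-expressing cells (n = 3) were compared with libraries of control cells (n = 3). BARD1 forms a ubiquitin ligase with BRCA1 that acts in DNA repair. According to the series' design text, the BARD1-expressing cells came from lentiviral transduction of the OVCAR8 line with a BARD1 open reading frame, and the labels speak of stable cells and of 48 h. The titles of all 6 samples name OVCAR8ip1, where the cell line tag names SKOV3ip1 and a tumour source, a conflict that the data used here do not settle. Both groups were kept in RPMI-1640 medium with serum. The labels do not say whether control cells received an empty vector, so transduction and BARD1 cannot be told apart, and a transduced line may be 1 population. The sample titles call the libraries biological replicates, but do not say that they came from separate cultures. The spread behind each p-value is that of these libraries, and how much of it is technical is not known.

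Poly(A)-selected RNA was sequenced, and the table holds whole-number read counts per gene. Totals were 12744310 to 24349158 reads in BARD1-expressing libraries and 21819199 to 23992482 in control libraries. Levels are given below as counts per 1000000 (CPM) of each library's reads in tested genes, scaled by edgeR's TMM factors, replicate 1 to 3 in that order within each group. At these depths 3 reads, the limit that a count of 0 allows, equal 0.123 to 0.235 CPM, for counting error only. Differences are log2 fold changes of BARD1-expressing over control cells with their standard error, from edgeR's quasi-likelihood test with p-values adjusted over all 15400 genes by the Benjamini-Hochberg method. "Rose" and "fell" are used of adjusted p under 0.05. BARD1 itself had 49.0, 44.3 and 45.7 CPM in BARD1-expressing libraries, against 17.1, 17.2 and 19.4 CPM in control libraries, and every BARD1-expressing library lay above every control library (log2 fold change 1.37 ± 0.081, edgeR adjusted p = 4.67e-12). Exact permutation of these 6 values gave a two-sided p of 0.1, the smallest that 3 against 3 allows.

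Most of the module rose in BARD1-expressing cells, by modest amounts. Of the 36 tested members, 27 rose and 1 fell, where 29.0% of all tested genes changed, 16.5% rose and 12.4% fell. The members that rose thus made up 75.0% of those tested. The members were chosen with earlier results of these data known, so their shares describe the list and are not an independent test. The median log2 fold change was 0.29 over the members and -0.0027 over all tested genes, and 33 of 36 members had a positive value. The libraries of the groups did not overlap for 28 members that were higher in BARD1-expressing cells and 2 that were lower, against 21.7% and 19.2% of all tested genes. A rise of at least 1.5-fold was seen in 10 members, or 27.8% of those tested, against 6.17% of all tested genes. Only SLC7A11, DDIT4 and ASNS among the members reached 2-fold. Highly expressed genes are called more often, since more reads narrow their error: with a mean of at least 100 CPM, 16 of 21 members rose, or 76.2%, against 538 of 2363 genes, or 22.8%.

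**Figure D1:**
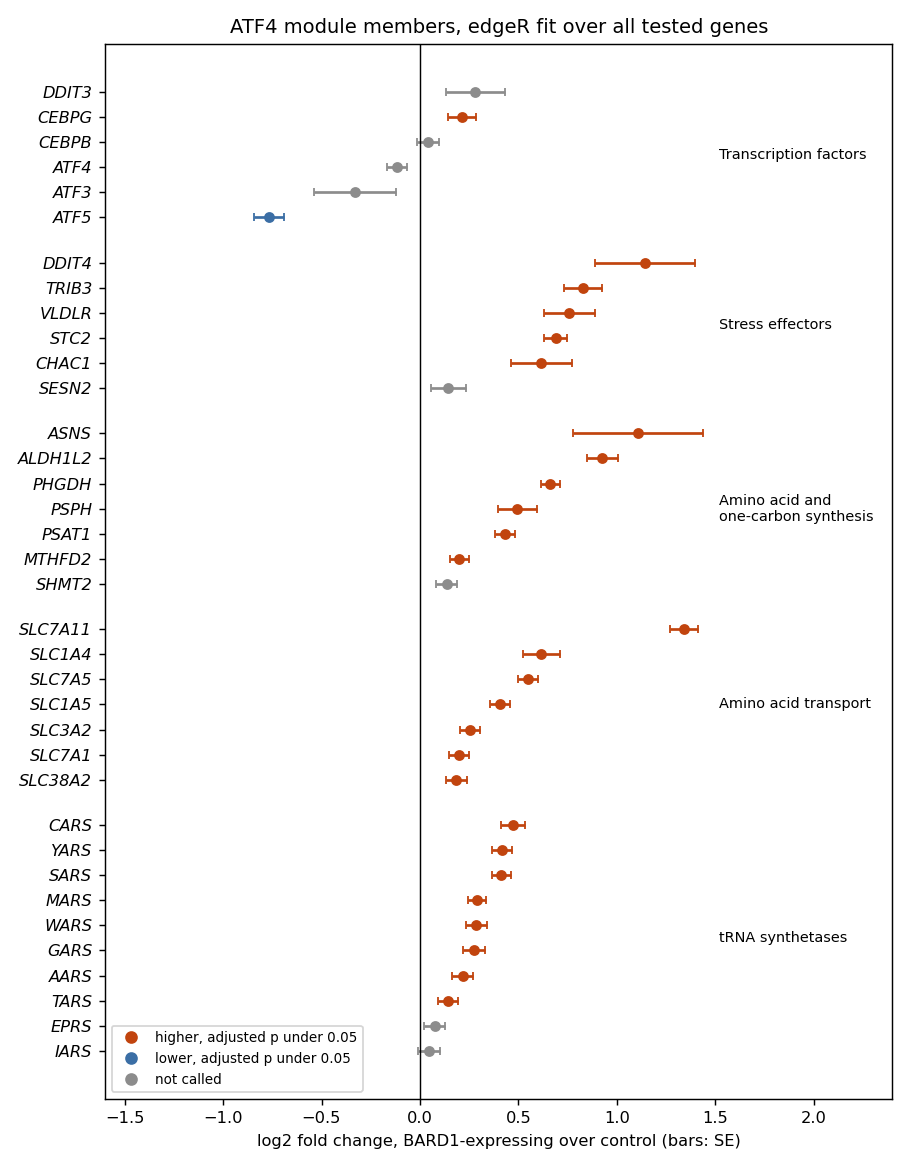
Log2 fold change of BARD1-expressing over control cells for the 36 tested members, grouped by role, with bars of 1 standard error from edgeR; grey points did not pass adjusted p under 0.05. All 7 transporter genes lie right of 0, SLC7A11, DDIT4 and ASNS reach furthest right, and ATF5 is the only coloured point left of 0.

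By role, among the 6 tested transcription factors only CEBPG rose, ATF5 fell, and the median log2 fold change was -0.04. Of the other roles, 5 of 6 stress effectors (median 0.72), 6 of 7 synthesis enzymes (median 0.50), 7 of 7 transporter genes (median 0.41) and 8 of 10 synthetases (median 0.28) rose. Summed over the 7 transporter genes, the level was 1630 to 1688 CPM in BARD1-expressing libraries, against 1246 to 1326 CPM in control libraries. For the 10 synthetases the sum was 2544 to 2627 CPM in BARD1-expressing libraries, against 2105 to 2249 CPM in control libraries.

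The DNA element that recruits ATF4 is shown here for the members that carry its letters near an annotated start. The choice by symbol did not use this feature. Many of these genes became known as ATF4 targets through this element, so its share is a description. The letters searched were TGATGNAA (N, any base) and its reverse complement TTNCATCA, within 250 bases before to 50 bases after each gene start in RefSeq, build GRCh38.p14. Such windows were at hand for 31 of the 37 members, and 14 of the 31 held a match, or 45.2%. A match was found for 1217 of 27305 genes in the same table, or 4.46%, and for 278 of 10313 tested protein-coding genes matched by symbol, or 2.70%. Some genes have several starts and so several windows: counted by window, 14 of 51 member windows held the letters, against 1270 of 35116 windows in all. The matches sat in 6 of 9 synthetase genes, 4 of 6 transporter genes, 2 of 6 transcription factor genes, 1 of 4 synthesis genes and 1 of 6 stress effector genes. Members that rose held it in 12 of 23 cases and the other members in 2 of 8. A match is only these letters and does not show that a factor binds there, and other element sequences were not searched. The 30 bases around each match follow, 5′ to 3′ on the strand of the gene, with the 8 matched letters in capitals.
ATF3, chr1:212565205-212565234, plus strand: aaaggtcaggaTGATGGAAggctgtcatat
CEBPG, chr19:33374060-33374089, plus strand: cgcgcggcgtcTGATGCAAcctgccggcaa
CHAC1, chr15:40953251-40953280, plus strand: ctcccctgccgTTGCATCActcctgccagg
ASNS, chr7:97872458-97872487, minus strand: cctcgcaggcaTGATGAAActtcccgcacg
SLC3A2, chr11:62881719-62881748, plus strand: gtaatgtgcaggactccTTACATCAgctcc
SLC7A1, chr13:29595663-29595692, minus strand: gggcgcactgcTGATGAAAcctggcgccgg
SLC1A4, chr2:64989381-64989410, plus strand: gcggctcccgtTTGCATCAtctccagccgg
SLC1A5, chr19:46784893-46784922, minus strand: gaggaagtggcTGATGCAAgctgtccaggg
AARS, chr16:70289675-70289704, minus strand: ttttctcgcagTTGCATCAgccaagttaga
CARS, chr11:3057407-3057436, minus strand: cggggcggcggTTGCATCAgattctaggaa
GARS, chr7:30594834-30594863, plus strand: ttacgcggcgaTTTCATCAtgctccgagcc
IARS, chr9:92293692-92293721, minus strand: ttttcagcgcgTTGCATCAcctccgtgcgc
MARS, chr12:57488053-57488082, plus strand: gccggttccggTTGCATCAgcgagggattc
TARS, chr5:33440956-33440985, plus strand: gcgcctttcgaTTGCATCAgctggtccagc
Read as TGATGNAA, the base at N was C in 9 of these 14 windows, among them 5 of the 6 synthetases, and A in 3.

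The element falls close to a RefSeq start of several synthetase genes. Positions count the first base at the window's own RefSeq start as 0. The capitals begin at -2 in CARS, -4 in MARS, -13 in IARS and -33 in GARS. In AARS they begin at -187 and in TARS at 2. In the transporter genes they begin at -7 in SLC1A4, -97 in SLC1A5, 7 in SLC7A1 and 37 in SLC3A2. In the other genes they begin at -42 in CEBPG, -68 in ASNS, -191 in ATF3 and -209 in CHAC1. Some of these starts lie inside the gene as counted here, well inside it in MARS, SLC3A2 and SLC1A5. For CEBPG, SLC3A2, SLC1A4, SLC1A5, GARS and TARS the window at the outermost start held no match. The matched letters are not tied to the outcome one by one, for ATF3 and IARS hold them and did not pass the test. The whole 250 bases before the start are given for CHAC1 and ASNS, which hold the element upstream, and for PHGDH, a gene that rose and whose window holds no match.
CHAC1, chr15:40953221-40953470, plus strand: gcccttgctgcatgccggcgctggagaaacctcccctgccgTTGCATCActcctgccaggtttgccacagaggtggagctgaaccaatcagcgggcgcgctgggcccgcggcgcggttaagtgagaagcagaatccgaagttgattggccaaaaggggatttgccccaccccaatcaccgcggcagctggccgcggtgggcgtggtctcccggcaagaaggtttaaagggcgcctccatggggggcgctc
ASNS, chr7:97872409-97872658, minus strand: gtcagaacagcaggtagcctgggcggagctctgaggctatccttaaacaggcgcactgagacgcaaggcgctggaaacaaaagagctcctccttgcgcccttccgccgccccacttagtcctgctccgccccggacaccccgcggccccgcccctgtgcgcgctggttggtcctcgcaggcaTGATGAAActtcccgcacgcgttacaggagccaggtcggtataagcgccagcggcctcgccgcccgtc
PHGDH, chr1:119711684-119711933, plus strand: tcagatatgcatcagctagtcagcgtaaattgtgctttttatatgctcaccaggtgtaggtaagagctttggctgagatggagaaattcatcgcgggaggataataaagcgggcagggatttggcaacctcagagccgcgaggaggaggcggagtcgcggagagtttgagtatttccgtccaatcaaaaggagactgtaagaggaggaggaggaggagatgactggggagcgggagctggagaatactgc

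Among the transcription factors, ATF4 mRNA was not higher in BARD1-expressing cells, although most genes known to respond to the factor were. ATF4 (ENSG00000128272, GRCh38 chromosome 22, 39519695 to 39522685, plus strand) had 252, 261 and 263 CPM in BARD1-expressing libraries, against 295, 276 and 272 CPM in control libraries. Every BARD1-expressing library lay below every control library, but by a small amount that did not pass the test (log2 fold change -0.12 ± 0.050, edgeR adjusted p = 0.0802). ATF5 (ENSG00000169136, GRCh38 chromosome 19, 49928702 to 49933935, plus strand), a relative of ATF4 that is likewise controlled at translation, had 33.9, 40.5 and 32.4 CPM in BARD1-expressing libraries, against 62.2, 60.2 and 60.4 CPM in control libraries. It was the only member that fell, with no overlap between the groups (log2 fold change -0.77 ± 0.077, edgeR adjusted p = 3.45e-08). ATF5 lies within the same stretch as NUP62 on the other strand, strand use in the counting is not known, and NUP62 had a log2 fold change of 0.08 ± 0.051 (edgeR adjusted p = 0.295). CEBPG, which pairs with ATF4 on its elements, had 66.6, 60.4 and 57.5 CPM in BARD1-expressing libraries, against 52.8, 49.1 and 56.8 CPM in control libraries. The lowest BARD1-expressing library and the highest control library nearly met (log2 fold change 0.21 ± 0.071, edgeR adjusted p = 0.0263). That call was lost without control replicate 1 (edgeR adjusted p = 0.0774), control replicate 2 (0.182) or BARD1-expressing replicate 1 (0.0947), and with DESeq2 (0.0534).

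DDIT3 and ATF3, known from strong stress, were expressed at low levels in both groups. DDIT3, the pro-apoptotic factor CHOP, had 5.51, 6.36 and 5.77 CPM in BARD1-expressing libraries, against 4.62, 4.91 and 5.12 CPM in control libraries. The groups did not overlap, yet the difference did not pass the test (log2 fold change 0.28 ± 0.150, edgeR adjusted p = 0.174). DDIT3 overlaps MARS on the opposite strand, and without strand their reads cannot be told apart: BARD1-expressing libraries held 70, 154 and 87 reads of DDIT3 beside 4091, 7890 and 5029 of MARS, and control libraries 112, 112 and 111 beside 6371, 6141 and 5881. ATF3, a repressor induced by stress, had 2.83, 2.19 and 2.52 CPM in BARD1-expressing libraries, against 2.81, 3.55 and 3.00 CPM in control libraries, with overlapping groups and no call (log2 fold change -0.33 ± 0.208, edgeR adjusted p = 0.256). CEBPB was expressed at 95.9 to 106 CPM in BARD1-expressing libraries and 96.9 to 101 CPM in control libraries, and its difference did not pass the test (log2 fold change 0.04 ± 0.057, edgeR adjusted p = 0.656). NUPR1, a stress-induced chromatin protein, was too low to test, at 1, 3 and 5 reads in BARD1-expressing libraries, against 5, 3 and 6 reads in control libraries.

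**Figure D2:**
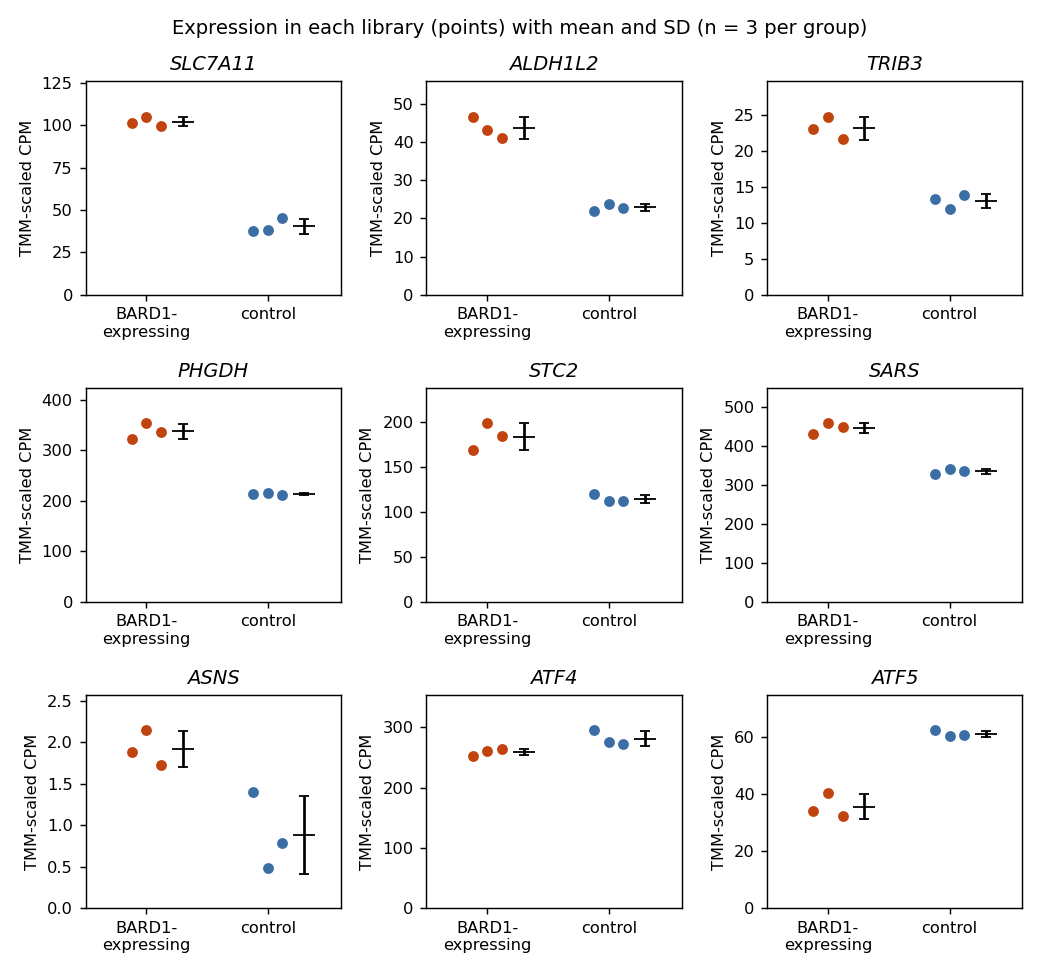
TMM-scaled CPM of 9 members in each library, from 0 upward, with BARD1-expressing libraries left of control libraries and the mean with 1 SD (n = 3 per group) beside the points. SLC7A11, ALDH1L2, TRIB3, PHGDH, STC2 and SARS are higher in all BARD1-expressing libraries, ASNS is near 1 to 2 CPM with a wide control spread, and ATF4 and ATF5 lie lower in BARD1-expressing libraries.

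The 6 stress effectors are genes known to be induced with ATF4 that act on growth signalling, secretion or metabolism, and 5 of them rose. TRIB3 (ENSG00000101255, GRCh38 chromosome 20, 362835 to 397559, plus strand), a pseudokinase that binds AKT and damps ATF4 in feedback, had 23.0, 24.7 and 21.6 CPM in BARD1-expressing libraries, against 13.3, 11.9 and 13.9 CPM in control libraries. All BARD1-expressing libraries lay well above the highest control library (log2 fold change 0.83 ± 0.097, edgeR adjusted p = 3.78e-07). STC2 (ENSG00000113739, GRCh38 chromosome 5, 173314713 to 173329503, minus strand), a secreted stanniocalcin and the most abundant of the 6, had 168, 198 and 184 CPM in BARD1-expressing libraries, against 119, 111 and 111 CPM in control libraries. Its groups were well apart (log2 fold change 0.69 ± 0.059, edgeR adjusted p = 2.31e-09). VLDLR (ENSG00000147852, GRCh38 chromosome 9, 2621834 to 2660053, plus strand), a lipoprotein receptor, had 11.6, 10.3 and 9.75 CPM in BARD1-expressing libraries, against 6.68, 6.53 and 5.40 CPM in control libraries, and again the groups were separate (log2 fold change 0.76 ± 0.131, edgeR adjusted p = 8.68e-05).

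Of the remaining effectors, DDIT4 and CHAC1 were expressed at low levels and rose. DDIT4 (ENSG00000168209, GRCh38 chromosome 10, 72273920 to 72276036, plus strand), also REDD1, an inhibitor of mTORC1, had 4.33, 4.50 and 2.99 CPM in BARD1-expressing libraries, against 2.60, 1.58 and 1.15 CPM in control libraries. The spread within each group was wide but the groups did not overlap (log2 fold change 1.14 ± 0.254, edgeR adjusted p = 0.00141). With 1 library left out its log2 fold change ran from 0.92 without control replicate 3 to 1.53 without control replicate 1. CHAC1 (ENSG00000128965, GRCh38 chromosome 15, 40952962 to 40956519, plus strand), an enzyme that degrades glutathione and holds the element printed above, had 6.06, 6.36 and 7.70 CPM in BARD1-expressing libraries, against 4.13, 4.91 and 4.06 CPM in control libraries. Each BARD1-expressing library exceeded each control library (log2 fold change 0.62 ± 0.157, edgeR adjusted p = 0.00413). SESN2, a leucine sensor that restrains mTORC1, had 20.9, 24.5 and 22.5 CPM in BARD1-expressing libraries, against 22.1, 19.5 and 20.2 CPM in control libraries. Its groups overlapped and it did not pass the test (log2 fold change 0.14 ± 0.090, edgeR adjusted p = 0.256).

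Of the synthesis enzymes, those of the serine pathway rose at all 3 steps. PHGDH (ENSG00000092621, GRCh38 chromosome 1, 119648411 to 119744226, plus strand), which makes the first committed step from a glycolytic intermediate, had 323, 353 and 335 CPM in BARD1-expressing libraries, against 214, 215 and 210.4 CPM in control libraries. The control libraries were close to each other and all BARD1-expressing libraries were far above them (log2 fold change 0.66 ± 0.050, edgeR adjusted p = 2.45e-10). PSAT1, the aminotransferase of the next step, had 251, 256 and 251 CPM in BARD1-expressing libraries, against 176, 189 and 197 CPM in control libraries, with no overlap (log2 fold change 0.43 ± 0.052, edgeR adjusted p = 5.06e-07). PSPH, the phosphatase that releases serine, had 26.7, 29.98 and 23.3 CPM in BARD1-expressing libraries, against 18.1, 17.8 and 21.2 CPM in control libraries. It was the least abundant of the serine enzymes and its groups were also separate (log2 fold change 0.50 ± 0.099, edgeR adjusted p = 4.61e-04).

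Of the mitochondrial folate enzymes, MTHFD2 and ALDH1L2 rose and SHMT2 did not pass the test. SHMT2, which turns serine into glycine and a one-carbon unit, had 318, 373 and 349 CPM in BARD1-expressing libraries, against 312, 323 and 312 CPM in control libraries. BARD1-expressing replicate 1 lay within the control range, and the gene was the member nearest to the threshold that did not pass it (log2 fold change 0.14 ± 0.054, edgeR adjusted p = 0.0646). It passed without that replicate (log2 fold change 0.19, edgeR adjusted p = 0.00243). MTHFD2, the next folate enzyme, had 227, 221 and 233 CPM in BARD1-expressing libraries, against 194, 195 and 203 CPM in control libraries. The groups were separate by a narrow margin (log2 fold change 0.20 ± 0.049, edgeR adjusted p = 0.00319), and without BARD1-expressing replicate 3 the call was lost (edgeR adjusted p = 0.0517). ALDH1L2 (ENSG00000136010, GRCh38 chromosome 12, 105019784 to 105084577, minus strand), which oxidises formyl-folate in mitochondria, had 46.6, 43.0 and 40.9 CPM in BARD1-expressing libraries, against 22.0, 23.7 and 22.8 CPM in control libraries. It nearly reached 2-fold (log2 fold change 0.93 ± 0.077, edgeR adjusted p = 1.47e-09). ALDH1L2 overlaps C12orf45 on the other strand, whose log2 fold change was -0.25 ± 0.103 (edgeR adjusted p = 0.0803).

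ASNS, asparagine synthetase and a classical ATF4 target, was almost absent in both groups. ASNS (ENSG00000070669, GRCh38 chromosome 7, 97852118 to 97872542, minus strand) had 1.89, 2.15 and 1.73 CPM in BARD1-expressing libraries, against 1.40, 0.482 and 0.784 CPM in control libraries. The BARD1-expressing libraries were above all control libraries (log2 fold change 1.11 ± 0.330, edgeR adjusted p = 0.0134), but these are 24, 52 and 26 reads in BARD1-expressing libraries, against 34, 11 and 17 reads in control libraries. The call was lost without control replicate 2 (log2 fold change 0.81, edgeR adjusted p = 0.0823) and without BARD1-expressing replicate 2 (1.00, edgeR adjusted p = 0.0723). The log2 fold change was largest without control replicate 1, at 1.61. ASNS overlaps AC079781.5 on its own strand, with 4, 4 and 1 reads in BARD1-expressing libraries, against 1, 3 and 6 in control libraries. On the other strand it overlaps the pseudogene AC005326.1, with 0, 4 and 6 reads in BARD1-expressing libraries, against 5, 1 and 1 in control libraries.

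All 7 transporter genes rose, and SLC7A11 led the whole module. SLC7A11 (ENSG00000151012, GRCh38 chromosome 4, 138164097 to 138242349, minus strand), also xCT, imports cystine in exchange for glutamate and is known to respond to NRF2 as well as ATF4. It had 101, 105 and 99.9 CPM in BARD1-expressing libraries, against 37.6, 38.0 and 45.4 CPM in control libraries. The lowest BARD1-expressing library was far above the highest control library (log2 fold change 1.34 ± 0.070, edgeR adjusted p = 6.20e-13). SLC7A5 (ENSG00000103257, GRCh38 chromosome 16, 87830023 to 87869488, minus strand), or LAT1, which carries leucine and other large neutral amino acids, had 364, 394 and 372 CPM in BARD1-expressing libraries, against 257, 246 and 269.8 CPM in control libraries, also without overlap (log2 fold change 0.55 ± 0.051, edgeR adjusted p = 1.04e-08). Both light chains need the heavy chain SLC3A2 (CD98) to reach the cell surface. SLC3A2 had 258, 279.9 and 262 CPM in BARD1-expressing libraries, against 223, 225 and 223 CPM in control libraries, a narrow but separate rise (log2 fold change 0.26 ± 0.050, edgeR adjusted p = 3.41e-04).

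Relative to the heavy chain mRNA, both light chain mRNAs were higher in BARD1-expressing libraries. Per base of gene length, SLC7A11 reads were 0.211, 0.202 and 0.205 of SLC3A2 reads in BARD1-expressing libraries, against 0.0907, 0.0909 and 0.109 in control libraries. The same ratio for SLC7A5 was 1.54, 1.54 and 1.55 in BARD1-expressing libraries, against 1.26, 1.196 and 1.32 in control libraries. Neither pair of groups overlapped, and the exact two-sided permutation p was 0.1 for each, the smallest possible here.

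The remaining 4 carriers serve neutral and cationic amino acids, and each rose. SLC1A4 (ENSG00000115902, GRCh38 chromosome 2, 64988477 to 65023865, plus strand), or ASCT1, a carrier of alanine, serine and cysteine, had 22.2, 22.3 and 25.1 CPM in BARD1-expressing libraries, against 15.7, 15.7 and 13.98 CPM in control libraries, with a clear gap between groups (log2 fold change 0.62 ± 0.094, edgeR adjusted p = 1.81e-05). SLC1A5, or ASCT2, which imports glutamine, had 224, 243 and 226 CPM in BARD1-expressing libraries, against 169, 176 and 178 CPM in control libraries. It was far more abundant than SLC1A4 and its groups were also separate (log2 fold change 0.41 ± 0.051, edgeR adjusted p = 1.37e-06). SLC7A1, the arginine and lysine carrier CAT1, had 365, 385 and 369 CPM in BARD1-expressing libraries, against 305, 328 and 342 CPM in control libraries. Its control libraries differed more among themselves (log2 fold change 0.20 ± 0.051, edgeR adjusted p = 0.00472), with its call lost without control replicate 1 (edgeR adjusted p = 0.0595). SLC38A2, or SNAT2, which cells raise when short of amino acids, had 295, 259 and 283 CPM in BARD1-expressing libraries, against 239, 244 and 253 CPM in control libraries. BARD1-expressing replicate 2 was close to the controls (log2 fold change 0.18 ± 0.053, edgeR adjusted p = 0.0107). That call was lost without control replicate 1 (edgeR adjusted p = 0.0676), control replicate 2 (0.0625) or BARD1-expressing replicate 3 (0.0848).

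The synthetases join amino acids to their tRNAs, and 8 of the 10 rose, none by 1.5-fold. SARS, for serine, had 431, 457 and 447 CPM in BARD1-expressing libraries, against 328, 339 and 334 CPM in control libraries, the most abundant synthetase here (log2 fold change 0.41 ± 0.047, edgeR adjusted p = 2.82e-07). YARS, for tyrosine, had 198, 211 and 211 CPM in BARD1-expressing libraries, against 149.5, 161 and 155 CPM in control libraries. CARS, for cysteine, had 77.5, 81.8 and 79.8 CPM in BARD1-expressing libraries, against 56.6, 57.1 and 58.9 CPM in control libraries. The groups were apart in both YARS (log2 fold change 0.42 ± 0.052, edgeR adjusted p = 9.97e-07) and CARS (log2 fold change 0.47 ± 0.060, edgeR adjusted p = 1.36e-06). MARS, for methionine, had 322, 326 and 334 CPM in BARD1-expressing libraries, against 263, 269 and 271 CPM in control libraries, likewise apart (log2 fold change 0.29 ± 0.047, edgeR adjusted p = 4.41e-05). WARS, for tryptophan, had 149, 141 and 143 CPM in BARD1-expressing libraries, against 113, 120.1 and 122.4 CPM in control libraries. GARS, for glycine, had 242, 219.6 and 234 CPM in BARD1-expressing libraries, against 178, 191 and 205 CPM in control libraries. Neither overlapped between groups, for WARS (log2 fold change 0.29 ± 0.053, edgeR adjusted p = 2.29e-04) or for GARS (log2 fold change 0.27 ± 0.057, edgeR adjusted p = 6.23e-04).

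Of the last 4 synthetases, AARS and TARS rose, and IARS and EPRS did not pass the test. AARS, for alanine, had 255, 241 and 265 CPM in BARD1-expressing libraries, against 214, 229 and 211 CPM in control libraries. The groups were separate (log2 fold change 0.22 ± 0.053, edgeR adjusted p = 0.00283), but the call was lost without BARD1-expressing replicate 3 (edgeR adjusted p = 0.0571). TARS, for threonine, had 338, 316 and 331 CPM in BARD1-expressing libraries, against 282, 306 and 305 CPM in control libraries. It was the rising member nearest to the threshold (log2 fold change 0.14 ± 0.050, edgeR adjusted p = 0.0372), and 8 of 14 alternative analyses ended its call. These included the removal of control replicate 1 (edgeR adjusted p = 0.237) or replicate 2 (0.0805) and of BARD1-expressing replicate 1 (0.0816) or replicate 3 (0.181). IARS, for isoleucine, had 311, 276 and 284 CPM in BARD1-expressing libraries, against 265, 276 and 301 CPM in control libraries, overlapping and not called (log2 fold change 0.05 ± 0.056, edgeR adjusted p = 0.584). Its sign turned to -0.01 without BARD1-expressing replicate 1. EPRS, for glutamate and proline, had 303, 274 and 287 CPM in BARD1-expressing libraries, against 255, 281 and 284 CPM in control libraries, also overlapping and not called (log2 fold change 0.08 ± 0.054, edgeR adjusted p = 0.326).

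Members differed widely in level. Per kilobase of gene length, the highest were SARS, PSAT1 and ATF4. SARS averaged 116 ± 3.43 CPM per kilobase in BARD1-expressing cells and 87.0 ± 1.44 in control cells (SD, n = 3 each). PSAT1 averaged 115 ± 1.27 CPM per kilobase in BARD1-expressing cells and 85.5 ± 4.71 in control cells (SD, n = 3 each), and ATF4 103 ± 2.29 CPM per kilobase in BARD1-expressing cells and 112 ± 4.84 in control cells (SD, n = 3 each). SARS and PSAT1 differed by less than the larger of their SDs in both groups. The lowest tested member was ASNS, at 0.431 ± 0.0478 CPM per kilobase in BARD1-expressing cells and 0.200 ± 0.105 in control cells (SD, n = 3 each). Next came ATF3, at 0.622 ± 0.0796 CPM per kilobase in BARD1-expressing cells and 0.772 ± 0.0953 in control cells (SD, n = 3 each), and VLDLR, at 1.13 ± 0.104 CPM per kilobase in BARD1-expressing cells and 0.664 ± 0.0751 in control cells (SD, n = 3 each); VLDLR was the lower of these in control cells. The 10 members that rose at least 1.5-fold ran from ASNS up to PHGDH, at 36.6 CPM per kilobase in BARD1-expressing cells and 23.1 in control cells. In bulk RNA, fewer cells that express a gene and less RNA per cell cannot be told apart.

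**Figure D3:**
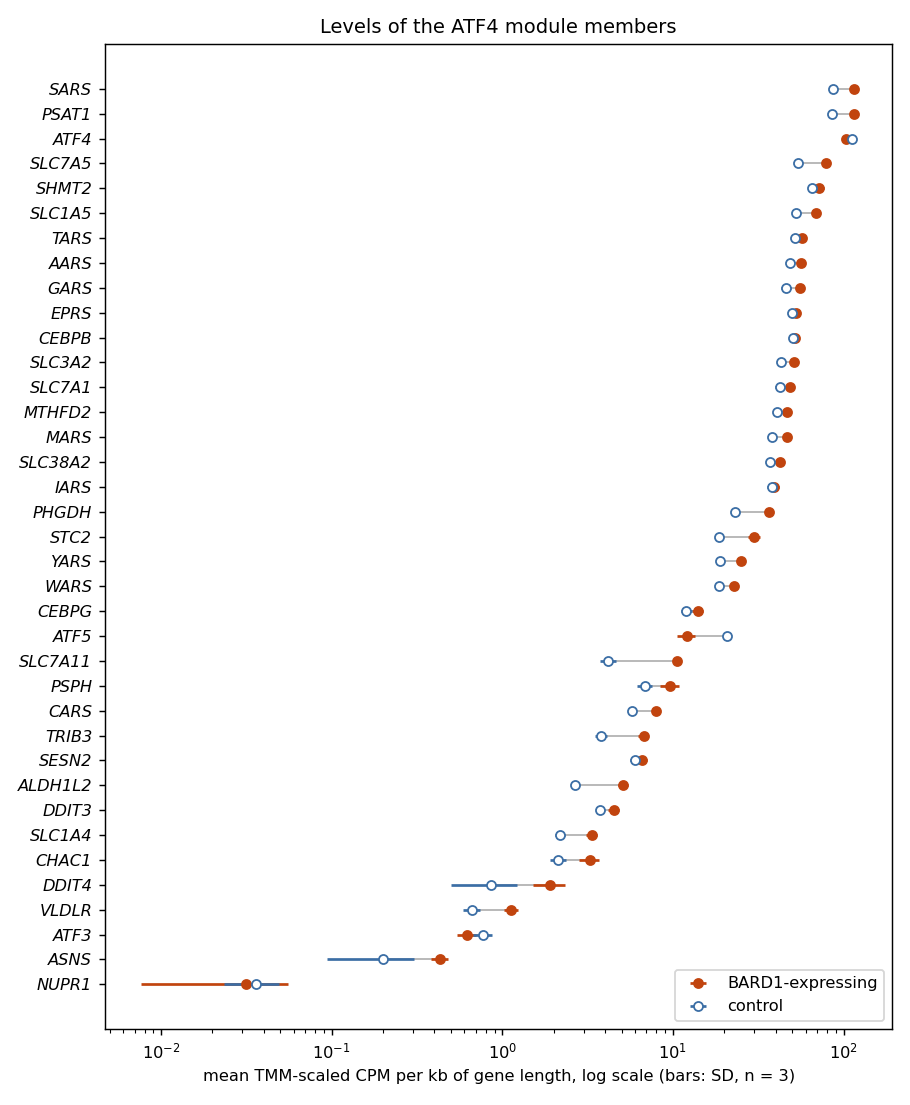
Mean level per kilobase in BARD1-expressing cells and in control cells for each member, on a log axis in TMM-scaled CPM, with bars of 1 SD (n = 3). ATF4, PSAT1 and SARS lie near 100 CPM per kilobase and ASNS, ATF3 and NUPR1 lie below 1 in both groups.

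Gene lists beside the module were counted in the same way, and were likewise chosen with earlier results known. Of all tested genes 29.0% were called, 16.5% higher and 12.4% lower. Of 18 eIF2 kinases and core regulators of the pathway, 2 rose and 3 fell (median -0.02). Their share called, 27.8%, was near that of all tested genes. DELE1, which relays mitochondrial stress to the kinase HRI, rose (log2 fold change 0.51 ± 0.072, edgeR adjusted p = 7.01e-06), while IMPACT, which restrains the kinase GCN2, fell (log2 fold change -0.40 ± 0.077, edgeR adjusted p = 2.66e-04). The exchange factor subunit EIF2B5 (log2 fold change -0.27 ± 0.065, edgeR adjusted p = 0.00282) fell as well. The eIF2 subunit EIF2S2 rose (log2 fold change 0.18 ± 0.050, edgeR adjusted p = 0.00926). The count of risen genes was 1 without control replicate 1 or BARD1-expressing replicate 3 and 4 without control replicate 3, and 5 fell without BARD1-expressing replicate 1. Of 16 further known ATF4 targets 6 rose and 1 fell (median 0.19), so 37.5% rose. SLC6A9, a glycine carrier, had 5.58, 6.07 and 7.56 CPM in BARD1-expressing libraries, against 2.10, 2.06 and 2.49 CPM in control libraries (log2 fold change 1.53 ± 0.182, edgeR adjusted p = 5.21e-07). This estimate is above that of any member, but its order against SLC7A11 (1.34 ± 0.070) is not settled. With 1 library left out SLC6A9 went down to 1.40 and SLC7A11 up to 1.43. PCK2, mitochondrial phosphoenolpyruvate carboxykinase, had 110.2, 134 and 125 CPM in BARD1-expressing libraries, against 86.9, 85.4 and 79.4 CPM in control libraries, without overlap (log2 fold change 0.55 ± 0.065, edgeR adjusted p = 3.92e-07). MTHFD1L, a mitochondrial folate enzyme, also rose (log2 fold change 0.33 ± 0.055, edgeR adjusted p = 6.59e-05). ERO1A, an oxidase of the endoplasmic reticulum, fell (log2 fold change -0.22 ± 0.059, edgeR adjusted p = 0.00550).

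Synthetases, carriers and folate enzymes outside the module gave mixed counts, beside 29.0% of all tested genes called. The share called was 53.8% of the other cytosolic synthetases and scaffolds and 17.6% of the mitochondrial synthetases. It was 43.8% of the other transporters and 23.1% of the other folate and glycine enzymes. Of 13 other cytosolic synthetases and scaffold genes 2 rose and 5 fell (median -0.05), whereas 8 of the 10 member synthetases rose. LARS (log2 fold change 0.64 ± 0.056, edgeR adjusted p = 3.40e-09) and HARS (log2 fold change 0.60 ± 0.056, edgeR adjusted p = 9.47e-09) rose, and NARS (log2 fold change -0.97 ± 0.051, edgeR adjusted p = 8.10e-13) and RARS (log2 fold change -0.34 ± 0.057, edgeR adjusted p = 5.99e-05) fell. Of 17 mitochondrial synthetases 2 rose, HARS2 and EARS2, and 1 fell, NARS2 (median 0.03). EARS2 lost its call without control replicate 1 or BARD1-expressing replicate 3, which left 1 risen gene, and NARS2 lost its call without control replicate 2 or 3. Of 16 other amino acid transporters 4 rose and 3 fell (median 0.06). SLC38A5, a glutamine carrier, had 69.3, 72.1 and 68.9 CPM in BARD1-expressing libraries, against 144, 144 and 148 CPM in control libraries, and so was well below control (log2 fold change -1.05 ± 0.054, edgeR adjusted p = 5.10e-13). SLC6A6, the taurine carrier, rose (log2 fold change 0.60 ± 0.064, edgeR adjusted p = 7.47e-08), as did SLC38A1 (log2 fold change 0.25 ± 0.050, edgeR adjusted p = 4.36e-04), while the cationic carrier SLC7A2 fell (log2 fold change -0.29 ± 0.078, edgeR adjusted p = 0.00647). Without BARD1-expressing replicate 3, 2 of these carriers rose. Of 13 other folate and glycine enzymes (median -0.06), TYMS (log2 fold change -0.46 ± 0.058, edgeR adjusted p = 1.52e-06) and MTHFD2L (log2 fold change -0.45 ± 0.132, edgeR adjusted p = 0.0122) fell, and 1 gene fell without BARD1-expressing replicate 2 or 3.

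Neighbouring stress pathways were counted beside all tested genes, of which 29.0% were called, 16.5% higher and 12.4% lower. Of 20 genes of the unfolded protein response of the endoplasmic reticulum 6 rose and 0 fell in edgeR, with 0 lower at unadjusted p under 0.05 and 0 lower in DESeq2 (median 0.06). EDEM1 (log2 fold change 0.44 ± 0.068, edgeR adjusted p = 2.07e-05), XBP1 (log2 fold change 0.37 ± 0.066, edgeR adjusted p = 1.43e-04), SEL1L (log2 fold change 0.28 ± 0.060, edgeR adjusted p = 0.00107) and MANF (log2 fold change 0.23 ± 0.069, edgeR adjusted p = 0.0128) rose, and the other 2 calls were lost in 12 of 14 alternatives each. The count of risen genes was 3 without control replicate 1 or 2. Of 11 NRF2 targets 5 rose and 1 fell (median 0.21), so 54.5% were called. TXNRD1 (log2 fold change 0.37 ± 0.047, edgeR adjusted p = 1.48e-06), NQO1 (log2 fold change 0.30 ± 0.052, edgeR adjusted p = 7.59e-05) and AKR1C1 (log2 fold change 1.44 ± 0.298, edgeR adjusted p = 6.77e-04) rose, and GCLM, a subunit of the glutathione-making ligase, fell (log2 fold change -0.22 ± 0.061, edgeR adjusted p = 0.00892). GCLM lost its call without BARD1-expressing replicate 3, and 2 targets fell without BARD1-expressing replicate 2.

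**Figure D4:**
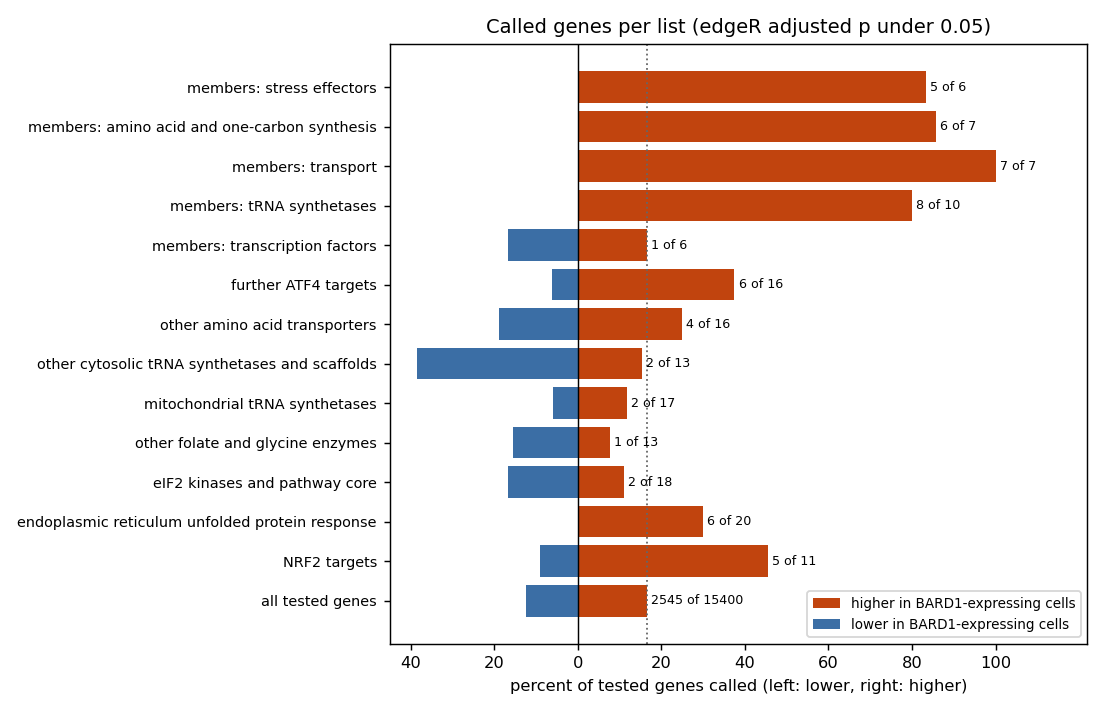
Percent of tested genes that rose (bars to the right, with counts) and that fell (bars to the left) in BARD1-expressing over control cells, for each member role and each other gene list; the dotted line is the share of all tested genes that rose, 16.5%. The stress effectors, synthesis enzymes, transporters and synthetases of the module have the longest bars to the right, and the other lists stand at 7.69% to 45.5% risen.

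Some genes of the other lists lie in stretches of chromosomes 5 and 18 whose genes differ between the groups as well, and the members do not. For each gene the median log2 fold change was taken over protein-coding genes averaging 5 CPM or more and centred within 5 Mb on either side. That median lay between -0.09 and 0.09 for the 37 members, which are spread over 16 chromosomes, with 0 of them on chromosome 18. Around NARS on chromosome 18 the neighbours had a median of -1.05, around IMPACT -0.55 and around TYMS -0.50. Around LARS on chromosome 5 the median was 0.51, around HARS and HARS2 0.62 and around DELE1 0.61. Around PDGFRB, a pericyte marker on chromosome 5, it was 0.40. Whether a change of these chromosome stretches sets those genes' levels was not tested.

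**Figure D5:**
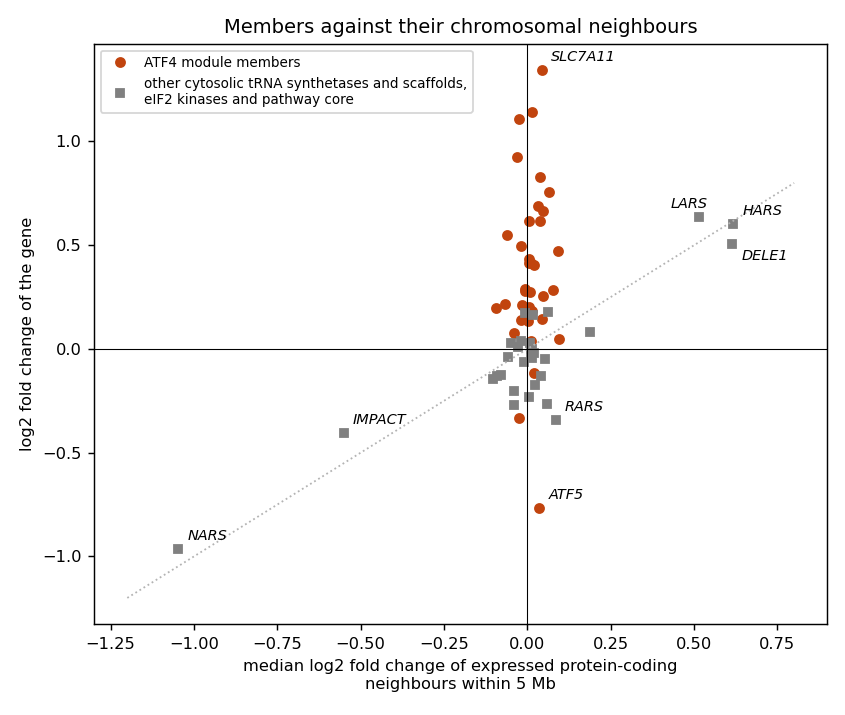
Log2 fold change of each gene, BARD1-expressing over control, against the median of its expressed neighbours within 5 Mb on the same scale, for members (circles) and for the other cytosolic synthetases and eIF2 pathway genes (squares); the dotted line marks equal values. Members form a column within 0.1 of 0 on the horizontal axis, while NARS and IMPACT lie left of it and LARS, HARS and DELE1 right of it, near the line.

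Markers of the labelled cell type were present, with exceptions. Summed over 9 serous ovarian carcinoma markers the level was 3928 to 4195 CPM in BARD1-expressing libraries and 3957 to 4030 CPM in control libraries. KRT7, KRT8 and KRT18 made most of it, and MUC16 was at 0 in all 6 libraries. WT1 was nearly absent, at 0.393 to 1.78 CPM in BARD1-expressing libraries and 0.307 to 0.461 CPM in control libraries. Of the 8 tested serous markers 3 rose and 1 fell. KRT7 rose (log2 fold change 0.34 ± 0.049, edgeR adjusted p = 6.95e-06) and PAX8 fell (log2 fold change -0.65 ± 0.061, edgeR adjusted p = 1.19e-08). WT1 and FOLR1 also rose, with their calls lost in 5 and 6 of 14 alternatives, and the groups overlapped for WT1. Summed over 8 endothelial markers it was 5.27 to 7.72 CPM in BARD1-expressing libraries and 1.98 to 2.399 CPM in control libraries, with EMCN at 0. TIE1 made most of it, at 3.62 to 6.24 CPM in BARD1-expressing libraries and 1.11 to 1.38 CPM in control libraries. PECAM1 had 1 to 8 reads per library, CDH5 and TEK had 0 or 1, and CLDN5 averaged lower in BARD1-expressing libraries. Over 9 fibroblast and pericyte markers it was 841 to 889 CPM in BARD1-expressing libraries and 1016 to 1083 CPM in control libraries, nearly all COL1A1, with DCN at 0. COL1A2 had 0 or 1 read per library and COL3A1 had 0 to 2. COL1A1 fell (log2 fold change -0.32 ± 0.047, edgeR adjusted p = 1.23e-05), while PDGFRB (log2 fold change 1.51 ± 0.129, edgeR adjusted p = 2.24e-09), LUM (log2 fold change 1.98 ± 0.519, edgeR adjusted p = 0.00527) and ACTA2 rose, the last with its call lost in 6 of 14 alternatives. Over 7 leukocyte markers it was 0.708 to 1.59 CPM in BARD1-expressing libraries and 0.745 to 1.07 CPM in control libraries, with CD3E and CD163 at 0. The endothelial sum was thus higher in BARD1-expressing libraries, mostly through TIE1, and the fibroblast sum, through COL1A1, lower. The part of these markers in the members' values was not tested.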

How the data were processed

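The members were taken by symbol, and members and gene lists were chosen with earlier results of these data known. Raw read counts per gene were used as deposited. HISAT2 2.0.5, featureCounts 1.5.0-p3, DESeq2 1.20.0 and GRCh38 are named in the submitters' processing notes, with no options, and neither the labels' protocols nor those notes fix whether strand was used. Genes with low counts were dropped with edgeR's filterByExpr. The test was the quasi-likelihood F test of edgeR 4.0.16 in R 4.3.3, with TMM scaling, robust dispersion, group as the only term and Benjamini-Hochberg adjustment over 15400 genes, and was tested on simulated data. The standard error is the log2 fold change over the root of F. The biological coefficient of variation was 6.28%. No pair of libraries agreed within sampling noise. Alternatives were DESeq2 1.42.0, other scaling factors, other filters, a replicate block, a non-robust fit and leaving out each library. Values named are those of BARD1, all members, up to 4 genes of smallest p per other list, and markers. Some genes that this rule would name are not reported here. Promoter windows are from RefSeq.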

Additional observations from a re-analysis of the deposited data

How the results depend on the processing

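Of 501 member results under the 14 alternatives, 479 kept their direction and side of the threshold, 20 in 7 genes lost the call (CEBPG, ASNS, MTHFD2, SLC7A1, SLC38A2, AARS and TARS), SHMT2 gained it once and IARS turned negative without BARD1-expressing replicate 1 (-0.0092 to 0.097 on the log2 scale with 1 library left out); the causes were not tested. The other 20 risen members kept their call in every alternative that gave a p. Between 23 and 27 members rose with 1 library left out, and 25 rose with DESeq2. No scaling moved the median of all tested genes by 0.1.

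Mitochondrial synthetases that rose numbered 1 with DESeq2 and 1 with no filter on low counts. With 1 library left out, 1 to 4 eIF2 pathway genes rose and 2 to 5 fell, 1 to 3 mitochondrial synthetases rose and 0 to 1 fell, 2 to 5 other transporters rose, 0 to 1 other folate and glycine enzymes rose and 1 to 2 fell, 3 to 7 unfolded protein response genes rose, and 0 to 2 NRF2 targets fell.

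Replicate numbers are shared by the groups, but same-numbered libraries did not deviate together (r = -0.35, -0.03 and -0.06 over 10847 genes). These values show no pairing by number, but with 3 libraries per group a weak pairing could go unseen. BARD1-expressing replicate 1 did deviate together with control replicate 3 (r = 0.34), and replicate 2 with control replicate 1 (r = 0.35). BARD1-expressing replicate 2 and control replicate 3 deviated in opposite ways (r = -0.32), and the remaining pairs had r of 0.01 to 0.05. What such libraries share was not tested. With the replicate number as a block, 26 members rose and 1 fell, and 2296 of all tested genes rose and 1694 fell; TARS lost its call (edgeR adjusted p = 0.0964). Depth limits the low members, ASNS, DDIT4, ATF3 and NUPR1.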

Other observations

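Among the further ATF4 targets, CBS, the enzyme that joins serine and homocysteine, varied more within the groups than between them, at 32.7, 62.9 and 50.3 CPM in BARD1-expressing libraries, against 62.3, 50.02 and 27.96 CPM in control libraries. Its value is uncertain, since a near-identical copy, CBSL, shares its sequence. FGF21, a secreted hormone known to respond to ATF4, was at 0 in all 6 libraries.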
